A study of Rattus norvegicus with 15 samples.

Results

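The net difference was measured between astrocytes that had been through H2O2 and then received unmodified mitochondria and astrocytes that had received vehicle only. It rests on 6 of the 15 astrocyte RNA-seq libraries of the study. The 6 libraries were taken by their labels, 3 from each group. Both groups were primary rat cortical astrocytes, which the study's methods describe as prepared from newborn Sprague Dawley pups, and no genotype separates the groups. The control wells received sterile water as vehicle. The other wells received 100 µM H2O2 for 30 min, and mitochondria isolated from cryopreserved rat placenta, with no lipid coat, 24 h later. RNA was collected 6 h after that. A group of 3 libraries from wells given H2O2 without mitochondria was used where the net difference was set beside its first step. The labels do not say whether the 3 samples of a group came from separate cultures, so p-values measure the spread between these samples. Since no group received mitochondria without H2O2, the 2 exposures cannot be told apart within the net comparison itself.

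Astrocytes are glial cells of the brain that take up and metabolise glucose, buffer oxidants and supply neurons with substrates and antioxidants. H2O2 crosses cell membranes and oxidises proteins, lipids and nucleic acids, and cells respond with changed transcription of antioxidant, repair and growth control genes. Mitochondria carry a small circular genome that encodes ribosomal and transfer RNAs of their own translation and some subunits of the respiratory chain and ATP synthase, whereas all other mitochondrial proteins are encoded in the nucleus. A bulk RNA measurement sums over all cells in the well, so that fewer cells of a type and less RNA per cell cannot be told apart.

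Total counts per library were 39311094, 41330464 and 46778663 in the control group and 38611887, 42763031 and 46672179 with unmodified mitochondria, so that the 2 groups covered the same range of depth. The genes are listed by Ensembl identifiers, and none of these 32552 could be paired with a symbol from the reference used here. Gene symbols, gene functions and the markers of astrocytes or other cell types were therefore not analysed here, and the labelled cell type was not checked against markers. The genes are described by position, length, level and response. Counts are given as CPM (counts per 1000000), that is, counts divided by a library size adjusted by the trimmed mean of M-values (TMM).

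The net difference covered 22.5% of the genes that could be tested. After the default edgeR filter on low counts, 15676 genes were tested with edgeR's quasi-likelihood test, and a gene was called at a Benjamini-Hochberg adjusted p under 0.05. Of these, 1607 genes (10.3%) were higher with H2O2 plus unmodified mitochondria than in control and 1916 (12.2%) were lower. The smallest adjusted p in this fit was 2.24e-06. The fit took the libraries as unpaired, although the replicate numbers were taken as pairing the samples, as given in the closing part. With the replicate number as a block, edgeR called 1750 genes higher and 2284 lower. Without regard to any model, all 3 libraries of one group lay above all 3 of the other for 6203 genes (39.6%), of which 3120 (19.9%) were higher and 3083 (19.7%) lower. At an unadjusted edgeR p under 0.05 there were 5470 genes (34.9%). These counts changed when single libraries were left out, which also reduces the samples of a group. They were 1775 higher and 2018 lower without the first control library, and 1544 and 1679 without the third mitochondria library. With the second mitochondria library left out, edgeR called 919 genes higher and 1218 lower. The number of genes higher was 995 without the first mitochondria library, 1016 without the second control library and 1071 without the third.

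Most called differences were of moderate size. The median log2 fold change was 0.61 among the genes called higher and -0.77 among those called lower, against 0.00 over all genes tested. Differences of less than 1.5-fold made up 770 of the genes called higher and 661 of those called lower. Differences above 2-fold were found for 456 genes higher and 719 lower, and above 4-fold for 173 and 206. Among the genes above 4-fold, low expression prevailed, with a median level of 1.52 CPM for those higher and 2.23 CPM for those lower. Of the 173 higher genes, 22 had no more than 3 counts in all control libraries together and 12 had 0, so that their fitted fold changes depend on the prior count. The precision of the fit left room for undetected differences, because the 95% interval of the fold change lay within 1.5-fold in either direction for 47.7% of the genes tested and within 2-fold for 70.2%.

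**Figure D1:**
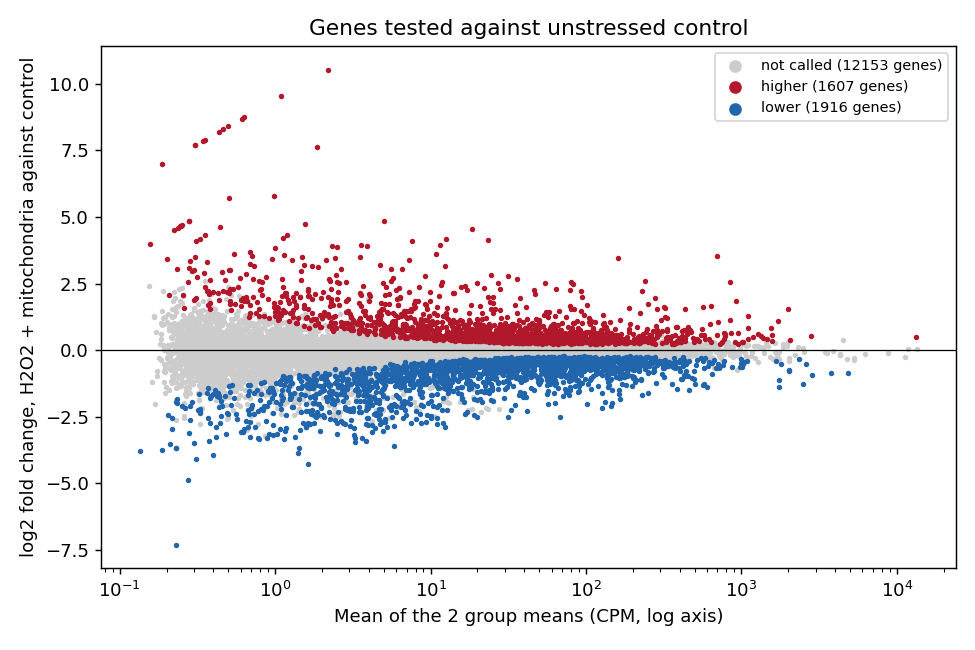
Each point is 1 of the 15676 genes tested, with the mean of the group means in CPM on a log axis and the fitted log2 fold change of H2O2 plus unmodified mitochondria against control (3 libraries each) on the vertical axis. The 1607 genes called higher are red and the 1916 called lower are blue and both occur over most of the range of levels. The points furthest from 0 have few counts.

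Abundant genes were called more often than rare ones. The share of genes called was 8.85% of 2329 genes below 1 CPM, 22.2% of 3931 genes from 1 to 10 CPM, 24.3% of 7369 genes from 10 to 100 CPM and 31.9% of 2047 genes at 100 CPM or more. More counts give a more sensitive test, and the part of depth in this order was not tested. Of the genes at 100 CPM or more, 280 were higher, with log2 fold changes from 0.23 to 3.54 and a median of 0.44. The 374 abundant genes called lower had log2 fold changes from -2.18 to -0.23, with a median of -0.53. Among these abundant genes, 33 were above 2-fold higher and 55 above 2-fold lower.

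The called genes took up a different part of the library in each group. The genes called higher held 11.0%, 11.2% and 11.0% of all counts in the control libraries, and 17.4%, 17.3% and 17.2% with unmodified mitochondria. In the H2O2 libraries the share was 14.0%, 14.8% and 14.9%. The genes called lower held 18.3%, 19.5% and 20.0% in control and 12.3% in each of the 3 mitochondria libraries. In the H2O2 libraries their share was 15.5%, 14.0% and 14.8%. The difference between control and mitochondria in these shares follows from the choice of the genes and was not tested. Genes chosen as apart in these 2 groups tend to place any other group between them, so that nothing is read from the intermediate shares of the H2O2 libraries.

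The genes called lower were longer than those called higher. The median exonic length was 2412 bases for the genes called higher, 2797.5 bases for those called lower and 2271 bases over all genes tested, given as a description with no test. With the genes divided into 4 classes of equal size at 1416, 2271 and 3550.5 bases, the share called lower, from the shortest to the longest class, was 7.80%, 11.0%, 13.1% and 17.0%. The share called higher was 7.80%, 11.7%, 10.8% and 10.7%, with little difference among the 3 longer classes. Longer genes collect more reads at a given level. The mean exonic length weighted by counts was 3104, 3302 and 3297 bases in the control libraries and 3181, 3143 and 3243 bases in the mitochondria libraries, so that the groups overlapped in this measure.

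Called genes were spread over all autosomes and the X chromosome, where the share called ranged from 18.7% on chromosome 16 to 25.6% on chromosome 13. On the X chromosome, 30 of its 535 tested genes were higher (5.61%, against 10.3% over all genes) and 73 were lower (13.6%, against 12.2%). On chromosome 18, 28 of 419 were higher (6.68%) and 65 were lower (15.5%). Whether these shares differ from those of other chromosomes was not tested. Of the 8 tested genes of the Y chromosome, 0 were called by edgeR (22.5% over all genes) or by DESeq2, and 0 had an unadjusted edgeR p under 0.05 (34.9% over all genes), a number of genes too small to read anything from. The summed level of the 47 listed Y genes, per 1000000 counts of the library without TMM, followed the replicate number rather than the group, at 94.7 to 118.8 CPM in the first, 75.7 to 89.0 CPM in the second and 47.0 to 59.8 CPM in the third libraries of all 5 groups. The fit with the replicate number as a block is given in the closing part.

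The distance between the groups exceeded the distance within them. Over the 15676 tested genes, the Euclidean distance in log2 CPM between a control and a mitochondria library averaged 98.1 and ranged from 89.9 to 111.6 over the 9 pairs. Within the groups it averaged 62.3 and ranged from 52.6 to 70.3. The difference between these averages was 35.9, with a two-sided exact permutation p = 0.1, which is the lower limit for groups of this size. On the first principal component of the 6 libraries, which held 58.3% of the variance, the control libraries lay at -49.2, -38.1 and -38.5 and the mitochondria libraries at 33.2, 45.1 and 47.5. The second component, with 16.4%, did not separate the groups.

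The squared distance between the group means was divided among the genes, ranked by the size of their own difference. The first 100 genes held 17.3%, the first 500 held 45.9% and the first 1000 held 62.8%. Such a ranking gives the first genes more than an equal share in any data. No share between libraries of the same group is given, so no concentration is read from these values. The genes called lower contributed 37.7% and those called higher 33.7%, and they too were chosen by this difference. By level, 42.9% of the squared distance lay in genes from 1 to 10 CPM, 30.2% in genes below 1 CPM, 21.3% in genes from 10 to 100 CPM and 5.62% in genes at 100 CPM or more. The genes below 1 CPM were called in only 8.85% of cases, and the spread of low counts adds to their share of the distance.

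Set beside the H2O2 libraries, the mitochondria libraries lay further from control on average, in a design too small for a test at 0.05. Distances to the mean of the control libraries were 70.2, 89.4 and 85.4 for the H2O2 libraries and 88.0, 95.7 and 98.3 for the mitochondria libraries, so that the 2 groups overlapped as a whole. Between libraries of the same replicate number, the mitochondria library was the further one in 3 of 3 pairs, by 17.8, 6.32 and 12.9 (two-sided exact sign-flip permutation p = 0.25, the smallest p for 3 pairs). The means were 81.7 ± 10.1 (SD, n = 3) and 94.0 ± 5.38 (SD, n = 3), a difference of 12.3 with a two-sided exact permutation p = 0.2 (smallest possible 0.1). The same distance was 45.1, 35.8 and 37.7 for the control libraries, which are part of that mean. Without the first H2O2 library, which lay closest to control, the difference between mitochondria and H2O2 means was 6.69 (two-sided exact permutation p = 0.3). Over the 16123 genes that passed the filter on the 9 libraries of the 3 groups, which is a larger set than that of the net comparison, the distance of single libraries from single control libraries averaged 101.9 for unmodified mitochondria and 90.7 for H2O2 alone, and the distance between those 2 groups averaged 82.7.

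**Figure D2:**
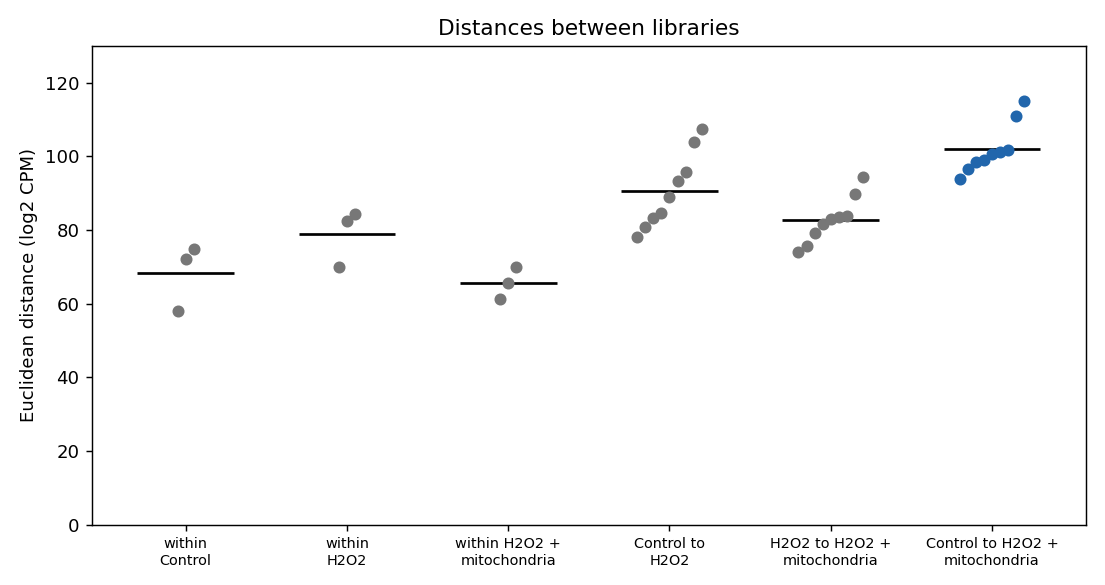
Each point is the Euclidean distance in log2 CPM over 16123 genes between a pair of libraries of the control, H2O2 and H2O2 plus unmodified mitochondria groups (3 libraries each), and each line is the mean of 3 pairs within a group or 9 pairs between groups. The pairs of control with mitochondria libraries, in blue, lie from 93.9 to 115.0, above all pairs within the groups, and overlap with the pairs of control and H2O2 libraries.

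The 2 steps of the net difference were also fitted separately with edgeR. H2O2 alone against control gave 465 genes higher and 660 lower of 15650 tested (2.97% and 4.22%, or 7.19% together). Unmodified mitochondria against H2O2 gave 290 higher and 270 lower of 15613 (1.86% and 1.73%, or 3.59% together). DESeq2 on the same 6 libraries called more genes, 785 higher and 1105 lower for H2O2 against control and 479 and 449 for mitochondria against H2O2. On all 15 libraries in a single fit DESeq2 called 1048 and 1281 in the former comparison and 550 and 520 in the latter, and edgeR called 809 higher in the former. With the replicate number as a block, the edgeR counts for mitochondria against H2O2 were 643 and 600. Without the second or the third control library, or the second or the third H2O2 library, H2O2 against control gave 145 to 227 genes higher and 231 to 350 lower. Mitochondria against H2O2 gave 152 genes higher without the first and 186 without the second mitochondria library, and 102 to 167 lower without the first or the third H2O2 library or any of the mitochondria libraries. These fits share the control or the mitochondria libraries with the net comparison, so their values for its genes are given only side by side. For the 1607 genes called higher the median log2 fold change was 0.61 in the net comparison, 0.34 for H2O2 against control and 0.23 for mitochondria against H2O2. For the 1916 genes called lower the medians were -0.77, -0.48 and -0.26. Over all genes tested they were 0.00, 0.00 and -0.01.

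The genes with the largest changes, among called genes that averaged 1 CPM or more, had over 3 counts in all in each group and did not overlap between the groups, are described next, with CPM values normalised over the 9 libraries of the 3 groups. The rule admitted 1494 genes higher and 1786 lower. Genes at or near 0 counts in a group can have larger fitted fold changes and are left out of it. Those at 0 in control are described further on. Under this rule, the 10 genes with the largest increase lay on 9 chromosomes and had net log2 fold changes from 3.95 to 4.84. The 10 with the largest decrease lay on 7 chromosomes, from -4.26 to -3.27. The step from H2O2 to mitochondria ranged from 0.41 to 5.10 over the former 10 genes, and the step from control to H2O2 from -0.94 to 3.93. Hence the largest net increases included genes with most of their difference in the first step and genes with most of it in the second.

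The largest increase under this rule was that of ENSRNOG00000005185, on the minus strand of chromosome 10 (83328410 to 83332851, Rnor6.0), with 2 exon blocks and 1857 exonic bases. Its level was 0.200, 0.219 and 0.569 CPM in control, 0.224, 1.26 and 1.42 CPM after H2O2 and 10.5, 10.9 and 7.64 CPM with unmodified mitochondria. All mitochondria libraries lay above all others, whereas the H2O2 libraries overlapped with control. The net log2 fold change was 4.84 (SE 0.37, edgeR adjusted p = 6.03e-05). It was 1.55 for H2O2 against control (edgeR adjusted p = 0.235) and 3.29 for mitochondria against H2O2 (edgeR adjusted p = 0.0036).

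ENSRNOG00000019810, on the plus strand of chromosome 9 (82556573 to 82564294), came next. It had 2, 6 and 6 counts in control, 16, 14 and 26 after H2O2 and 130, 139 and 114 with unmodified mitochondria, with no overlap between the 3 groups. The net log2 fold change was 4.72 (SE 0.40, edgeR adjusted p = 9.76e-05). It was 2.11 for H2O2 against control (edgeR adjusted p = 0.065) and 2.62 for mitochondria against H2O2 (edgeR adjusted p = 0.0022). Low counts were mostly even, as when both mates of a read pair are counted, so the control counts may stand for fewer fragments. With counts divided by 2 the net log2 fold change was 4.69 (SE 0.39).

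The largest decrease under the same rule was that of ENSRNOG00000006932, a gene of 26 exon blocks on the minus strand of chromosome 10 (19465771 to 19574094). It had 209, 89 and 82 counts in control, 62, 4 and 4 after H2O2 and 12, 4 and 4 with unmodified mitochondria. The first library of each group was the highest of its group, and all mitochondria libraries lay below all control libraries. The net log2 fold change was -4.26 (SE 0.61, edgeR adjusted p = 0.0013), and -2.26 for H2O2 against control (edgeR adjusted p = 0.20).

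ENSRNOG00000009342, on the minus strand of chromosome 3 (6617751 to 6626284), had 254, 34 and 27 counts in control, 40, 10 and 10 after H2O2 and 12, 8 and 2 with unmodified mitochondria. The first control library stood far above the others. The net log2 fold change was -3.88 (SE 1.02, edgeR adjusted p = 0.024). Without the first control library it was -2.01 (edgeR adjusted p = 0.067), and the call was also lost without the second (edgeR adjusted p = 0.081) or the third mitochondria library (edgeR adjusted p = 0.091).

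**Figure D3:**
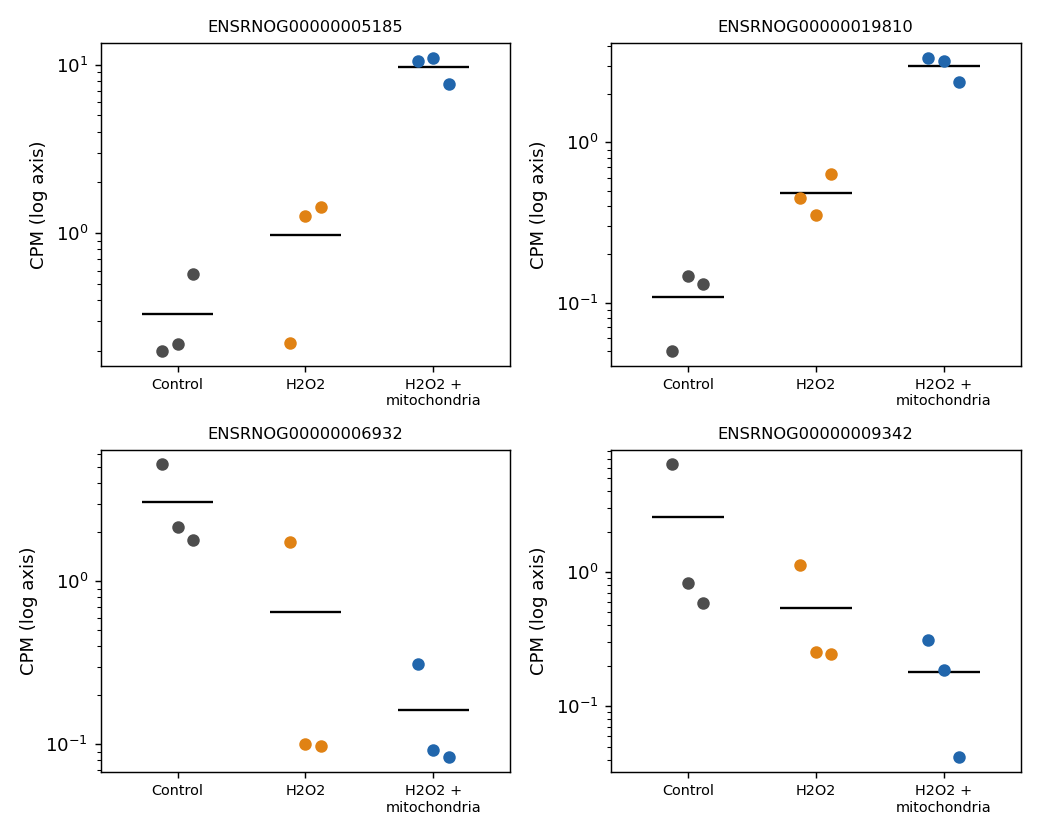
CPM on a log axis of the 4 genes named above in each of the 9 libraries (points) of the control, H2O2 and H2O2 plus unmodified mitochondria groups, with the mean of 3 libraries as a line. The mitochondria libraries do not overlap with control for any of the 4 genes, and the H2O2 libraries lie apart from both groups only for ENSRNOG00000019810.

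Several of the called genes were neighbours on their chromosome, that is, consecutive among the tested genes and called in the same direction. Untested genes were passed over, so that the longest run has 10 listed genes in its stretch. The runs of 5 genes on chromosomes X and 8 have 13 and 15. The number of runs to be expected from the shares called was not computed. Of the genes called higher, the longest such run held 7 genes and of those called lower 6, and 8 runs held 5 genes or more. Neighbours may be copies of one ancestral gene that share reads, or may overlap, so that the split of reads among them is uncertain and the summed level is given. All genes of a run were chosen as apart between control and mitochondria, which fixes the direction of their sum and favours an intermediate place for the H2O2 libraries, so that the sums are a description with no test. Most of the called genes stood alone, 1053 of those higher and 1279 of those lower.

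The longest run lay on chromosome 2 (248178389 to 248690089), with 7 genes called higher by log2 fold changes from 1.51 to 3.37. Their summed level was 180, 130 and 119 CPM in control, 249, 303 and 287 CPM after H2O2 and 437, 418 and 825 CPM with unmodified mitochondria. The third mitochondria library was well above the others. The median log2 fold change of the 7 genes was 1.96 in the net comparison, 0.90 for H2O2 against control and 0.87 for mitochondria against H2O2. Of the 7 genes, 6 were called higher by DESeq2 on the 6 libraries, and 6 by edgeR with counts divided by 2. With single libraries left out, 6 to 7 were called.

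On chromosome 12 (22641104 to 22732943), 5 neighbours were called higher, by up to 3.54 on the log2 scale. Their summed level was 574, 613 and 729 CPM in control, 1318, 1866 and 2089 CPM after H2O2 and 2311, 2398 and 2443 CPM with unmodified mitochondria. The median log2 fold change was 0.89 in the net comparison, 0.75 for H2O2 against control and 0.14 for mitochondria against H2O2. The means of the summed level were 639, 1758 and 2384 CPM in the 3 groups in the same order. A single abundant gene, that with the log2 fold change of 3.54, carried most of the difference in the sum.

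The longest run of decreases, on chromosome 10 (90932054 to 90999506), held 6 abundant neighbours with log2 fold changes from -1.91 to -0.46. Their summed level was 5928, 6318 and 7505 CPM in control, 4845, 4589 and 5571 CPM after H2O2 and 3612, 3583 and 3801 CPM with unmodified mitochondria. The median log2 fold change was -1.44 in the net comparison, -0.25 for H2O2 against control and -1.10 for mitochondria against H2O2 over the single genes. The means of the summed level, 6584, 5002 and 3665 CPM, are given in the order control, H2O2 and mitochondria, and no split into steps is read from them. Some of these genes overlap in position.

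On chromosome 18 (52550739 to 53272041), 5 neighbours were called lower, from -3.74 to -0.35. Their sum was 157, 196 and 198 CPM in control, 142, 124 and 140 CPM after H2O2 and 121, 124 and 143 CPM with unmodified mitochondria. The H2O2 and the mitochondria libraries overlapped. The median log2 fold change over the single genes was -2.13 in the net comparison, -0.70 for H2O2 against control and -0.22 for mitochondria against H2O2. The sum changed less than this net median, with a mean of 183 CPM in control and 129 CPM with mitochondria. The other 4 runs of 5 genes lay on chromosomes 1 (220803796 to 220844405) and 7 (117643206 to 117703094), both higher, and on chromosomes X (23478871 to 25628272) and 8 (99880073 to 103190243), both lower.

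**Figure D4:**
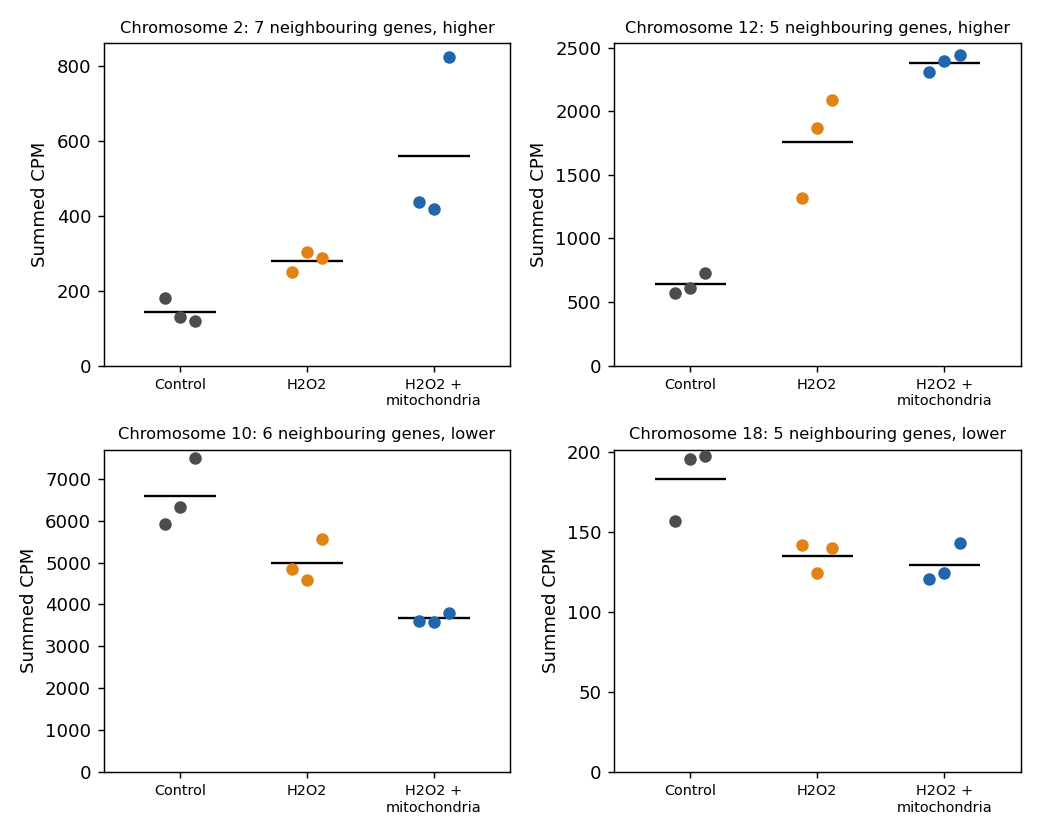
Summed CPM of the neighbouring called genes in 4 runs, per library (points) with the mean of 3 libraries as a line, for the control, H2O2 and H2O2 plus unmodified mitochondria groups. The gap between the control and the mitochondria libraries follows from the choice of the genes. The mitochondria libraries lie close together on chromosome 12, and the third stands above the others on chromosome 2.

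The share of counts on the 35 listed genes of the mitochondrial genome overlapped between the groups with and without the added mitochondria. It was 4.05%, 3.16% and 2.87% in the control libraries, 3.81%, 4.61% and 2.97% after H2O2 and 3.18%, 3.47% and 3.35% with unmodified mitochondria. The mean was 3.36% ± 0.61 (SD, n = 3) in control and 3.33% ± 0.146 (SD, n = 3) with mitochondria, a difference of -0.0259 percentage points (two-sided exact permutation p = 1, with 0.1 the smallest possible). With 3 libraries per group and this spread in control, the p does not show that the shares were equal. The 3 mitochondria libraries lay inside the range of the control libraries. No gene over 200 bases is listed before position 2740, so ribosomal RNA from that stretch would not be in these shares. Counts cannot tell transcripts of the added rat mitochondria from those of the astrocytes' own.

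Of the 35 genes listed on the mitochondrial genome, 13 are longer than 200 bases. Of these, 0 were called by edgeR or by DESeq2, against 22.5% of all genes tested by edgeR, and 0 had an unadjusted edgeR p under 0.05, against 34.9%. The smallest adjusted p by edgeR was 0.203, for the gene at 14136 to 15278. Their log2 fold changes ranged from -0.20 to 0.20 with a median of -0.08, and for 11 of the 13 the 95% interval lay within 1.5-fold in either direction. The widest intervals reached -0.72 and 0.63. Without the first control library, which had the highest share, 1 of the 13 genes was called and the median was 0.09.

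The remaining 22 mitochondrial genes are short, and 15 of them were tested. Of these, edgeR and DESeq2 each called 2 higher and 0 lower, and 3 were higher and 0 lower at an unadjusted edgeR p under 0.05. Over all genes edgeR called 10.3% higher, so that 2 of 15 is near the background and is no result about the short genes as a group; the 2 genes are given for their own values. The gene at 2665 to 2739 had 5.30, 5.11 and 4.49 CPM in control, 6.66, 11.6 and 7.59 CPM after H2O2 and 8.05, 9.66 and 7.93 CPM with unmodified mitochondria, a net log2 fold change of 0.78 (SE 0.16, edgeR adjusted p = 0.0081). The gene at 15348 to 15415 had 24.4, 22.0 and 18.9 CPM in control, 33.6, 58.7 and 34.0 CPM after H2O2 and 35.3, 37.0 and 35.3 CPM with unmodified mitochondria (net log2 fold change 0.72, SE 0.11, edgeR adjusted p = 0.0018). For both genes the H2O2 libraries, too, lay above control, with the second H2O2 library highest of all 9. Both are short, so that reads of longer transcripts that run into them may be counted there.

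**Figure D5:**
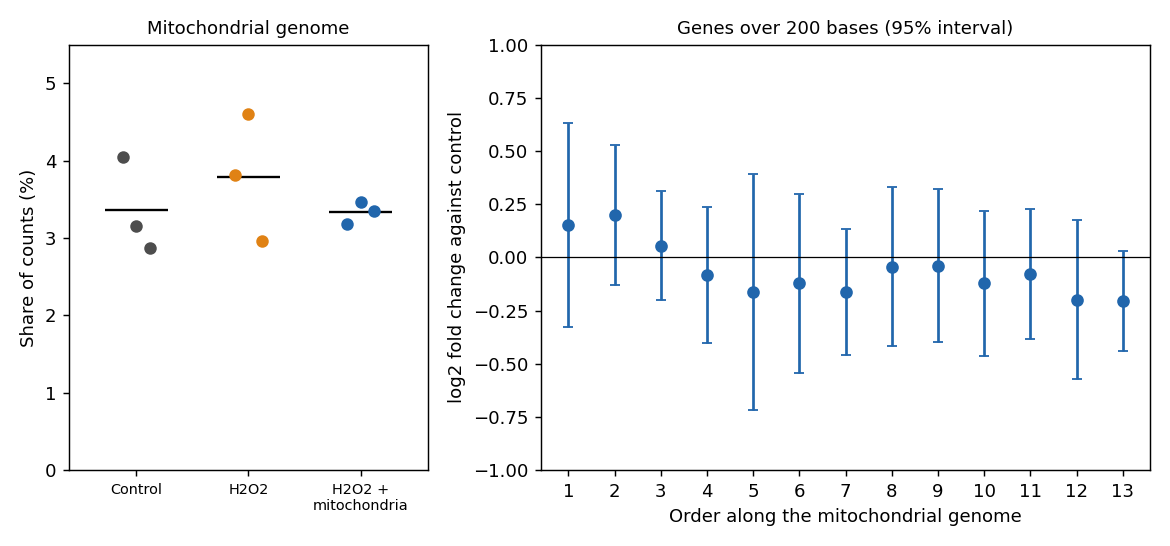
The left panel shows the share of counts on the listed genes of the mitochondrial genome in percent per library (points) with the mean of 3 libraries as a line. The right panel shows, for the 13 mitochondrial genes over 200 bases in order along the genome, the log2 fold change of H2O2 plus unmodified mitochondria against control with its 95% interval; every interval includes 0.

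A set of 20 genes had 0 counts in all control libraries and at least 5 counts in each mitochondria library. The reverse pattern was found for 3 genes. With a minimum of 1 count per library, the numbers were 105 and 61. Together the 20 genes had 884, 902 and 312 counts with unmodified mitochondria, or 22.9, 21.1 and 6.68 per 1000000 counts of the library, and 40, 36 and 32 counts in the H2O2 libraries. The first 2 mitochondria libraries thus held most of these counts. In the study's remaining groups, the sum was 3310, 2176 and 560 counts with lipid-coated mitochondria (MitoCoat) and 42, 22 and 39 counts with lipid-encapsulated mRNA (MitoCoat–mRNA). In both groups that received whole mitochondria the third library was the lowest.

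Of these 20 genes, 13 were also at 0 in all H2O2 libraries, and they lay in 5 places. Chromosome 17 held 8 of them, with 3 at 3820606 to 4167411, 4 at 38710432 to 39575720 and 1 at 42771526 to 42777186. The 3 genes of the first place had 297, 336 and 68 counts with unmodified mitochondria, and the 4 of the second had 282, 246 and 60. On chromosome 1, 4 genes at 79181855 to 79481865 had 131, 140 and 62 counts. The last gene, on chromosome 8 at 41442899 to 41445722, had 43, 36 and 40. Over the 3 MitoCoat–mRNA libraries together these 5 places held 0 or 4 counts each. The genes were chosen by these counts, so no test is given. RNA of the placental preparation itself was not analysed here, and the source of these reads was not tested.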

How the data were processed

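The study profiled RNA of rat cortical astrocytes in 15 samples, which the GEO labels put into 5 groups of 3. Per its methods, adapters and poor bases were removed with Trimmomatic 0.36, STAR 2.5.2b was used for alignment to Rnor6.0, and featureCounts of Subread 1.5.2 gave the uniquely mapped reads on Ensembl exons, strand-specific where applicable. The authors deposited raw counts per gene, without normalization. Among counts of 1 to 20, 93.4% to 97.7% were even numbers, as when both mates of a read pair are counted, so that counts divided by 2 were tried as an alternative added after the data had been seen. The labels' extraction text speaks of mitochondria-enriched fractions, whereas the paper describes RNA of the treated astrocytes, and the latter was assumed. A table of the whole series repeated the values of 1 library and was left out.

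Tests were run with edgeR 4.0.16 in R 4.3.3 (filterByExpr, TMM, quasi-likelihood F test, two-sided) on the 6 libraries of each comparison, with calls at an adjusted p under 0.05. Scripts were tested on simulated data. Log2 CPM values used a prior count of 2. For distances and shares, a two-sided exact permutation test was used, whose smallest p is 0.1 for 3 against 3. Alternatives were the Wald test of DESeq2 1.42.0 on 6 or 15 libraries, edgeR on 15 libraries, RLE size factors, filters of at least 1 count in total or 10 counts in every library, a replicate block, and each library left out. A paired test of distances by replicate number was added after the data had been seen. Python 3.11.15 with matplotlib 3.10.9 was used for plots.

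The replicate numbers come from the sample titles. Deviations from the group means correlated across genes at 0.27, 0.12 and 0.21 between same-numbered control and mitochondria libraries and at -0.21 to 0.03 between the others, and by the rule that each same-number pair exceed 0.1 the numbers were taken as pairing the samples. The same rule was met for mitochondria against H2O2, but not for H2O2 against control, where 1 pair had 0.09. No 2 libraries of a group were duplicates.

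The comparison, the rules and the gene lists were chosen with earlier results of these data known. Genes were named by the largest absolute log2 fold change among called genes with a mean of at least 1 CPM over the 6 libraries, over 3 counts in all in each group and no overlap between the groups, at most 2 in each direction because no symbols were at hand. Lists of metabolic, mitochondrial, stress and cell type genes were drawn up by symbol and were not analysed here for the same reason. Promoter sequences could not be matched to the identifiers and are not given.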

Additional observations from a re-analysis of the deposited data

How the results depend on the processing

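The numbers of genes called between H2O2 plus unmodified mitochondria and control stayed within 1.5 times the values given, under 8 alternatives of test, scaling, filter and block. Each library left out in turn gave 919 to 1775 genes higher and 1218 to 2018 lower. With the replicate number as a block, edgeR called 1750 genes higher and 2284 lower, the 4 named genes kept their calls, 0 of the 13 long mitochondrial genes and 7 genes of the longest run were called, so that the pairing changed no call among these. For H2O2 against control, DESeq2 called 785 higher and 1105 lower on 6 libraries and 1048 and 1281 on 15, and edgeR on 15 libraries called 809 higher. Leaving out single libraries gave 145 to 497 higher and 231 to 677 lower. For mitochondria against H2O2, DESeq2 called 479 higher and 449 lower on 6 libraries and 550 and 520 on 15, the replicate block gave 643 and 600, and leaving out single libraries gave 152 to 233 and 102 to 229. The cause of these shifts was not tested, other than that leaving out a library reduces the samples. The excess of the distance between the groups over that within them was 23.5 in DESeq2's vst values, 28.7 over the 500 most variable genes and 32.8 to 37.1 with single libraries left out. The mean distance to control exceeded that of H2O2 libraries by 8.69 in vst values, 12.3 over 500 genes, 6.69 to 15.9 with single libraries left out and 12.3 as the mean of pairs under the replicate block, with exact permutation p from 0.1 to 0.4 over these alternatives. The log2 fold change ranged from 4.59 to 5.51 for ENSRNOG00000005185, 4.40 to 4.97 for ENSRNOG00000019810, -5.08 to -3.63 for ENSRNOG00000006932 and -4.51 to -2.01 for ENSRNOG00000009342 with single libraries left out. All 4 genes had no value under the filter of at least 10 counts in every library. Alternatives for gene lists were not run, since the identifiers could not be paired with symbols. With 3 libraries per group, the 95% interval lay within 2-fold in either direction for 70.2% of the genes tested.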
